A study of Mus musculus with 8 samples.

Results

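Transcripts of 10 genes that shape mitotic chromosomes were examined in plasmacytoid dendritic cells (pDC), namely 7 condensin subunits (Smc2, Smc4, Ncapd2, Ncapg, Ncaph, Ncapd3 and Ncapg2), both type II topoisomerases (Top2a and Top2b) and Mki67. They were picked out by the gene names printed on the array, from a list of names drawn up with earlier results of these data known, and are 10 of the 36095 genes and unnamed transcripts on it. The cells came from bone marrow of female BALB/c mice that had been cultured with mouse Flt3 ligand, the cytokine that drives dendritic cell development; the age of the mice was not given. After magnetic enrichment, flow cytometry divided the pDC into a Sca-1- group (n = 4) and a Sca-1+ group (n = 4), and no other treatment or allele separates the groups. Sca-1 is the surface protein encoded by Ly6a. RNA of each sample was labelled with Cy3 and hybridised to 1 single-colour Agilent array. Whether the 4 samples of a group are separate cultures or mice is not stated in the labels. The p-values below therefore speak of the scatter among these arrays, and that scatter could be purely technical.

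Condensins are ring-shaped ATPases that fold and stiffen chromosomes for mitosis. Condensin I and condensin II share the SMC2 and SMC4 core and differ in their CAP-D, CAP-G and CAP-H subunits; condensin II sits in the nucleus throughout the cell cycle, whereas condensin I reaches chromosomes after the nuclear envelope breaks down. Topoisomerase II passes one DNA duplex through another and so untangles sister chromatids; the alpha form, TOP2A, is made mainly in dividing cells and the beta form, TOP2B, also in resting ones. Ki-67, the product of Mki67, coats mitotic chromosomes, keeps them apart from each other and is widely used as a marker of proliferating cells.

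The DNA just before the start sites of Top2a, Top2b and Mki67 is shown because the differences of the topoisomerase paralogs were unlike each other and Mki67 is the proliferation marker among the 10. The sequences are from RefSeq's mouse promoter table (assembly GRCm38.p6), 5′ to 3′ on the strand of the gene, and end before any base of the gene. Capitals mark motif matches on either strand. The first motif is CCAAT, the box bound by NF-Y. The others are TTTGAA and a variant, TTCGAA, forms of the cell cycle genes homology region, an element known from promoters of genes expressed in G2 and mitosis. The positions are chr11:99024200-99024439 on the minus strand for Top2a, chr14:16364956-16365205 on the plus strand for Top2b and chr7:135716451-135716629 on the minus strand for Mki67.
Top2a: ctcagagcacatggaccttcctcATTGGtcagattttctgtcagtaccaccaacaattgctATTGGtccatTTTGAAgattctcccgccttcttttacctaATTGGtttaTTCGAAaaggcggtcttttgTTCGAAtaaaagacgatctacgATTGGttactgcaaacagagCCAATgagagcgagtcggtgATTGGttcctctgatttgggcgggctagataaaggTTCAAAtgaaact
Top2b: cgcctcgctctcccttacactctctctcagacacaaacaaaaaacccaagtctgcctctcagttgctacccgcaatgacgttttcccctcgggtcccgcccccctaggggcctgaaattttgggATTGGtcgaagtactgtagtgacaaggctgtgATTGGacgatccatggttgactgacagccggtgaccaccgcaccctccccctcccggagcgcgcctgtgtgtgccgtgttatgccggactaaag
Mki67: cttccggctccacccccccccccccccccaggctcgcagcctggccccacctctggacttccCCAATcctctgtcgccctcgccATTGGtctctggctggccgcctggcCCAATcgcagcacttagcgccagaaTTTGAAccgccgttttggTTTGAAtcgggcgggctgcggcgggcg

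The Top2a sequence holds 6 CCAAT boxes and 4 cell cycle homology matches, and the Mki67 sequence holds 3 and 2. The Top2b sequence holds 2 CCAAT boxes, 126 and 94 bases before the start site, and no cell cycle homology match. Over 10 windows of 300 bases that the table holds for 9 of the genes (Ncapd3 has 2 windows, and Smc4 was not matched), TTTGAA occurred in 7, against 17.9% of all 32851 windows. CCAAT occurred in 6 of the 10, against 37.4% of all windows. At least 2 CCAAT boxes occurred in 4, those of Ncapd2, Top2a, Top2b and Mki67, against 11.7% of all windows. A cell cycle homology match together with a CCAAT box occurred in 5, those of Smc2, Ncapd2, Ncapg, Top2a and Mki67, against 7.52% of all windows. The E2F-type motif TTTCCCGC occurred in the windows of Ncapg and Ncapg2, against 1.07% of all windows, and TTTGGCGC in that of Ncapd2, against 0.514%. TTTCGCGC occurred in none of the 10, against 0.323% of all windows. The Ncaph window held none of these letters. All motifs were searched on both strands, TTCGAA and TTTGAA do not overlap each other in these windows, and a match is a description of letters, not of a bound site.

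**Figure D1:**
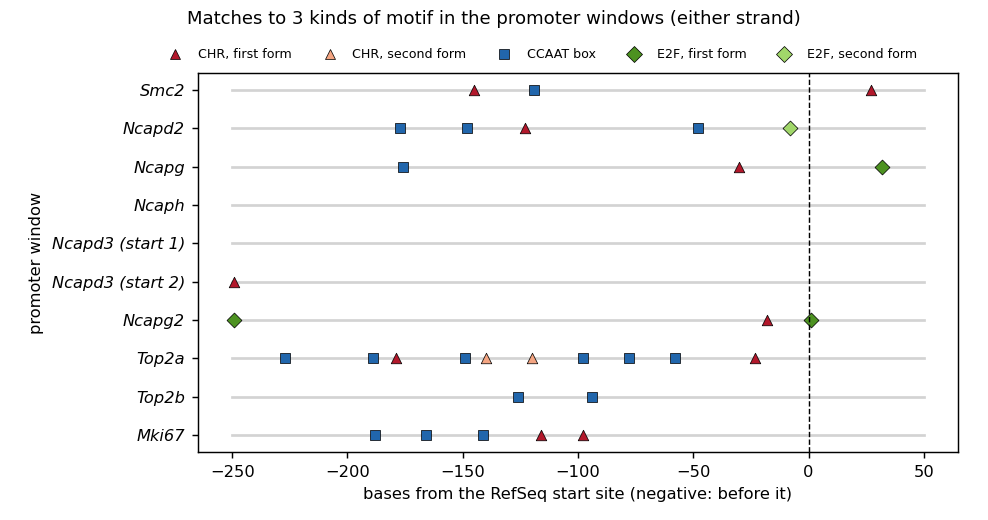
Matches to the CCAAT box, the cell cycle genes homology region and E2F-type motifs in the 300-base promoter windows, by distance in bases from the RefSeq start site (negative values lie before it). Top2a has 6 CCAAT boxes and 4 cell cycle homology matches, whereas Top2b has 2 CCAAT boxes and no cell cycle homology match.

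The sort was checked first with the gene for the sorted protein. The level of Ly6a was 2.78 ± 0.44 (SD, n = 4) in Sca-1- cells and 7.43 ± 0.28 (SD, n = 4) in Sca-1+ cells, 25.1-fold higher (limma adjusted p = 0.000625). A level here is the log2 of the scanner's processed signal minus the 75th percentile of that array, so a level of 0 equals the percentile. Levels of different genes come from different probes and were not compared with each other. Between 45.9% and 54.9% of probes were well above background on an array and none was saturated. All 12 pDC markers tested were measured, and 0 of them passed the test at an adjusted p of 0.05 (limma; 2 had an unadjusted p under 0.05 and 2 passed, as higher in Sca-1+, with the slide as a block). The log2 of their summed signal was 10.999 to 11.497 in Sca-1- and 11.221 to 11.578 in Sca-1+ samples. Over all genes tested 1.71% passed, and 6.22% with the block, so 0 of 12 without the block is near the general share.

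Of the 10 genes, 6 were lower in Sca-1+ pDC at an adjusted p of 0.05 and 0 were higher, against 1.58% of the 19818 genes tested that were lower and 1.71% that changed in either direction (limma, Benjamini-Hochberg over all 19818). The 6 were Ncaph, Top2a, Ncapd2, Smc2, Mki67 and Ncapg2. The median difference of the 10 was -1.61 on the log2 scale, or -1.37 with Ncapg set at its nominal detection limit, against 0.03 over all genes tested. All 10 had negative differences on all 4 slides, against 17.8% of all genes; a slide carried the Sca-1- and the Sca-1+ sample of 1 replicate number. The measured values of the groups did not overlap in 8 of the 10, against 5.04% of all genes; 1 of the 8 is Ncapg, whose Sca-1+ values are only a limit, so that its separation is not established. Of the 10, 7 had a fitted difference of at least 2-fold, against 2.45% of all genes. Ncapg is 1 of these 7, although it was only 1.56-fold lower at its nominal detection limit. Its sign on each slide also rests on undetected Sca-1+ values. In bulk RNA, fewer cells with a transcript and less of it per cell cannot be told apart. The place of an array on its slide was fixed by the sort, so place and sort cannot be told apart. With the slide as a block, 7 passed, the seventh being Smc4, against 4.12% of all genes that were lower and 6.22% that changed in either direction in that fit. The number called moved when samples were left out: it was 0 without replicate 1 of both groups, 0 without replicate 2 of both, 1 without replicate 3 of both and 8 without replicate 4 of both. The share of all genes called lower in the same fits was 0%, 0%, 0.136% and 3.1%, so the calls fell away over the whole array. In the first and in the second of these fits, 8 of the 10 genes had an unadjusted limma p under 0.05.

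**Figure D2:**
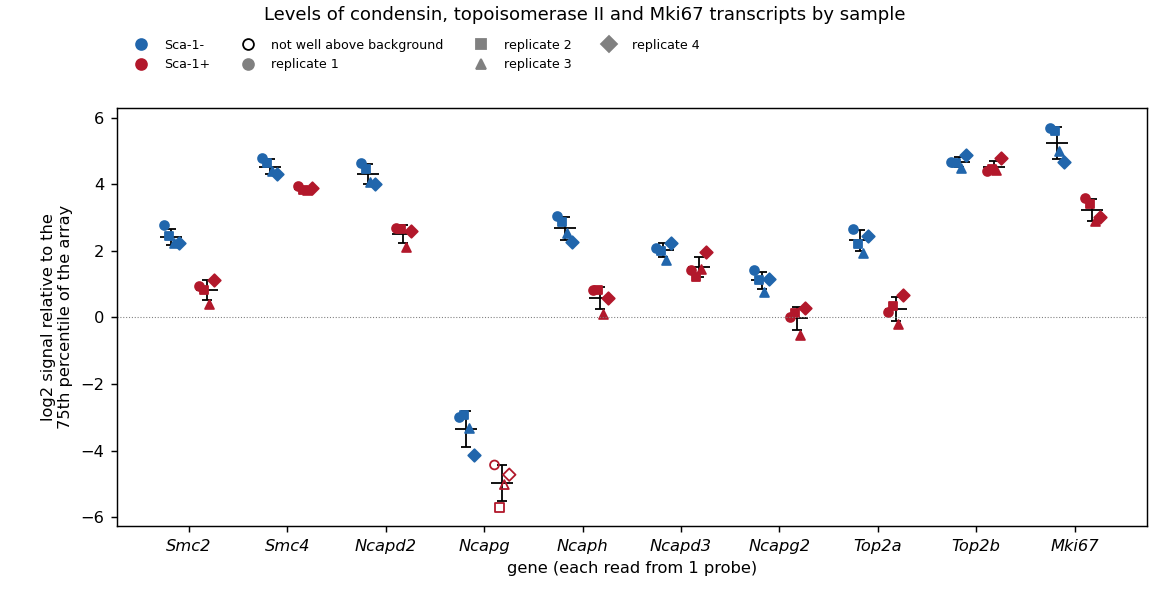
Levels (log2 processed signal minus the 75th percentile of the array) of the 10 genes in each of the 8 samples, by sorted group and replicate, with the group mean as a bar. Top2a, Mki67, Ncaph, Ncapd2 and Smc2 separate without overlap, whereas the Top2b and Ncapd3 groups overlap.

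The core subunits shared by both complexes behaved unequally in size. SMC2 and SMC4 are the ATPase arms of the ring. Smc2 stood at 2.76, 2.44, 2.23 and 2.25 in Sca-1- replicates 1 to 4 and at 0.94, 0.83, 0.40 and 1.12 in Sca-1+ replicates 1 to 4. Every Sca-1+ sample lay below every Sca-1- sample. The difference in Smc2 was -1.60 ± 0.20 (SE; 95% interval -2.04 to -1.15), 3.03-fold lower (limma adjusted p = 0.00645). Smc4 stood at 4.77, 4.64, 4.39 and 4.30 in Sca-1- and at 3.94, 3.83, 3.81 and 3.88 in Sca-1+ samples. The Smc4 groups did not overlap either, and the Sca-1+ samples were close together. Its difference was -0.66 ± 0.14 (SE; 95% interval -0.98 to -0.34), 1.58-fold lower, with a limma adjusted p of 0.0701 that missed the threshold. The adjusted p was 0.0238 with the slide as a block and 0.0408 without Sca-1- replicate 4. Leaving out any other 1 sample gave 0.113 to 0.248, and Smc4 stayed uncalled in 20 of 24 other settings. The Smc2 probe lies at chr4:52501012-52501071 and the Smc4 probe at chr3:68838437-68838496, both on the plus strand of mm9, the build printed with the probes.

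Among the subunits particular to condensin I, Ncapd2 and Ncaph fell. CAP-D2 is a HEAT-repeat subunit, and CAP-H is the kleisin that closes the ring. Ncaph stood at 3.04, 2.85, 2.55 and 2.26 in Sca-1- replicates 1 to 4 and at 0.83, 0.82, 0.11 and 0.58 in Sca-1+ replicates 1 to 4. The lowest Sca-1- sample was above the highest Sca-1+ sample. Ncaph was 4.26-fold lower, a difference of -2.09 ± 0.23 (SE; 95% interval -2.61 to -1.57; limma adjusted p = 0.00504), the largest fitted value of the 10, close to those of Top2a and Mki67. The order of these genes changed with the setting: after normexp background correction Mki67 was at -2.01 and Ncaph at -1.93, and without Sca-1- replicate 2 Top2a was at -2.10 and Ncaph at -2.03. Ncapd2 stood at 4.64, 4.46, 4.07 and 4.01 in Sca-1- and at 2.68, 2.65, 2.11 and 2.61 in Sca-1+ samples. These groups were apart as well, with Sca-1+ replicate 3 below the other Sca-1+ samples. Ncapd2 was 3.45-fold lower, a difference of -1.79 ± 0.20 (SE; 95% interval -2.25 to -1.33; limma adjusted p = 0.00520). The probes lie on the minus strand at chr2:126929625-126929684 for Ncaph and chr6:125118012-125118066 for Ncapd2 (mm9).

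Ncapg, which encodes the HEAT-repeat subunit CAP-G of condensin I, was dim. Its level was -3.01, -2.94, -3.31 and -4.13 in Sca-1- and -4.43, -5.70, -5.02 and -4.73 in Sca-1+ samples. The probe was well above background in 4 of 4 Sca-1- samples and 0 of 4 Sca-1+ samples, so the Sca-1+ values are only an upper limit. The dimmest detected probe of each array, or Ncapg's own signal where higher, was taken as its detection limit in Sca-1+ cells. At that limit, Ncapg was 1.56-fold lower there. This is a nominal figure, since an undetected probe can lie above the dimmest detected one. The mean limit, -3.99, was also above the level in Sca-1- replicate 4. The fitted difference had a limma adjusted p of 0.0664 and did not pass. Without Sca-1- replicate 4, the dimmest of the Sca-1- samples, the limma adjusted p was 0.0156. Leaving out any other 1 sample gave 0.0832 to 0.245. After normexp background correction the difference was -0.20 and did not pass, and it passed in 3 of 23 other settings. All these p-values were computed from undetected Sca-1+ values and do not establish a difference. The Ncapg probe lies at chr5:46091679-46091738 (mm9, plus strand).

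The subunits particular to condensin II had smaller differences. CAP-G2 and CAP-D3 are its HEAT-repeat subunits. Ncapg2 stood at 1.41, 1.11, 0.77 and 1.15 in Sca-1- and at 0.01, 0.13, -0.54 and 0.27 in Sca-1+ samples. Its groups did not overlap. Ncapg2 was 2.21-fold lower, a difference of -1.14 ± 0.21 (SE; 95% interval -1.63 to -0.66; limma adjusted p = 0.0390), and this call was lost in 12 of the 24 other settings, among them every omission of 1 sample but that of Sca-1+ replicate 4. Ncapd3 stood at 2.09, 1.99, 1.73 and 2.25 in Sca-1- and at 1.42, 1.23, 1.44 and 1.96 in Sca-1+ samples. Sca-1+ replicate 4 was above Sca-1- replicate 3, so these groups overlapped. The difference in Ncapd3 was -0.50 ± 0.19 (SE; 95% interval -0.94 to -0.07), with a limma adjusted p of 0.429, and a second probe for the gene gave -0.62, with an adjusted p of 0.947 in a fit by probe, and of 0.0324 with the slide as a block. For the main probe the adjusted p was 0.0659 with the block and 0.0271 with array weights. The main probes lie at chr12:117701714-117701773 for Ncapg2 and chr9:26902747-26902806 for Ncapd3 (mm9, plus strand).

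Whether the complexes differed in their change was tested within each array, as the mean level of Ncapd2, Ncapg and Ncaph minus that of Ncapd3 and Ncapg2. The contrast shifted by -1.01 on the log2 scale from Sca-1- to Sca-1+ samples, and by -0.83, -1.33, -1.24 and -0.65 on slides 1 to 4. A two-sided exact permutation test over the 8 samples gave p = 0.0286, the smallest that 4 against 4 samples can give, and 0.0286 after adjustment over the 2 contrasts tested. Because Ncapg was undetected in Sca-1+ cells, the contrast was also computed without it and was -1.12 (exact permutation p = 0.0286). With Ncaph2, the kleisin of condensin II, added to the second mean, it was -1.18 (exact permutation p = 0.0286). With all probes of a gene averaged it was -0.98 (exact permutation p = 0.0571), after normexp background correction -0.60 (exact permutation p = 0.0857), and leaving out any 1 of the 4 Sca-1+ samples gave an exact permutation p of 0.0571. Permuting within slides cannot give a p under 0.125, and it gave that value.

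**Figure D3:**
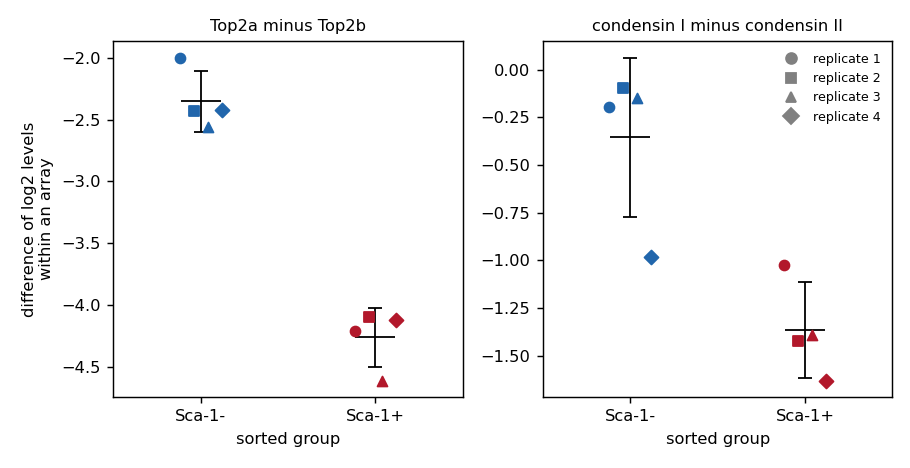
Within-array contrasts by sorted group, as log2 differences: Top2a minus Top2b, and the mean of Ncapd2, Ncapg and Ncaph minus the mean of Ncapd3 and Ncapg2. Marker shapes give the replicate, and bars the group mean and SD. Both contrasts were lower in the Sca-1+ sample on all 4 slides, with mean shifts of -1.91 and -1.01; the height on the axis depends on the probes and only the shift between groups is read.

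The topoisomerase II paralogs parted. Top2a stood at 2.65, 2.20, 1.94 and 2.45 in Sca-1- replicates 1 to 4 and at 0.17, 0.35, -0.19 and 0.66 in Sca-1+ replicates 1 to 4. All Sca-1+ samples lay below all Sca-1- samples. Top2a was 4.18-fold lower, a difference of -2.06 ± 0.22 (SE; 95% interval -2.58 to -1.55; limma adjusted p = 0.00503). Top2b stood at 4.65, 4.64, 4.49 and 4.88 in Sca-1- and at 4.38, 4.44, 4.42 and 4.78 in Sca-1+ samples. These groups overlapped, Sca-1+ replicate 4 being above 3 of the Sca-1- samples. The difference in Top2b was -0.16 ± 0.15 (SE; 95% interval -0.49 to 0.17; limma adjusted p = 1.00), an interval that holds 0 and does not reach the size of the Top2a difference. The level of Top2a minus that of Top2b shifted by -1.91 from Sca-1- to Sca-1+ samples (two-sided exact permutation p = 0.0286, adjusted 0.0286, the smallest possible), and by -2.21, -1.66, -2.05 and -1.70 on slides 1 to 4. This shift ranged from -1.97 to -1.79 when 1 sample was left out. The Top2a probe lies at chr11:98855522-98855581 on the minus strand and the Top2b probe at chr14:17263157-17263216 on the plus strand (mm9).
Top2a probe: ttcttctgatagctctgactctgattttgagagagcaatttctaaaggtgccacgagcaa

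Mki67 fell 4.05-fold. It stood at 5.69, 5.60, 5.01 and 4.68 in Sca-1- replicates 1 to 4 and at 3.59, 3.40, 2.89 and 3.02 in Sca-1+ replicates 1 to 4. The Sca-1- samples spread more widely than those of the other called genes but stayed above every Sca-1+ sample. The difference was -2.02 ± 0.27 (SE; 95% interval -2.63 to -1.41; limma adjusted p = 0.00812). A second probe, at chr7:142884764-142884823 (mm9, minus strand), gave -1.95 with an adjusted p of 0.00934 in the fit by probe, beside the main probe at chr7:142881591-142881650. The sequence of the second probe is shown since it measured the transcript at another place and gave nearly the same difference.
Mki67 second probe: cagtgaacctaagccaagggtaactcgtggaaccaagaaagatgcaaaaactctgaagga

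The size of the differences varied by slide. The median difference of the 10 genes was -1.63, -1.71, -1.77 and -1.004 on slides 1 to 4, while that over all genes was 0.07, -0.04, 0.02 and 0.01. Slide 4 gave the smallest difference for 9 of the 10, as it did for 243 of the 314 genes called lower. Slide 4 was scanned on another day and with another extraction protocol of the scanner software than slides 1 to 3, and each slide held both groups. Basophil and mast cell markers (5 of 6 tested) also differed by slide: the log2 of their summed signal was 4.15, 2.39, 3.65 and -1.40 in Sca-1- and 4.48, 2.69, 3.23 and -1.58 in Sca-1+ replicates 1 to 4. For neutrophil markers (6 of 8 tested) it was 3.69, 2.77, 3.25 and 1.96 in Sca-1- and 3.19, 3.29, 3.39 and 1.51 in Sca-1+ replicates 1 to 4. The part of either set of markers in the smaller differences on slide 4 was not tested. With each slide as its own comparison the 10 genes were lower on all 4, for Ncapg only by undetected Sca-1+ values.

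**Figure D4:**
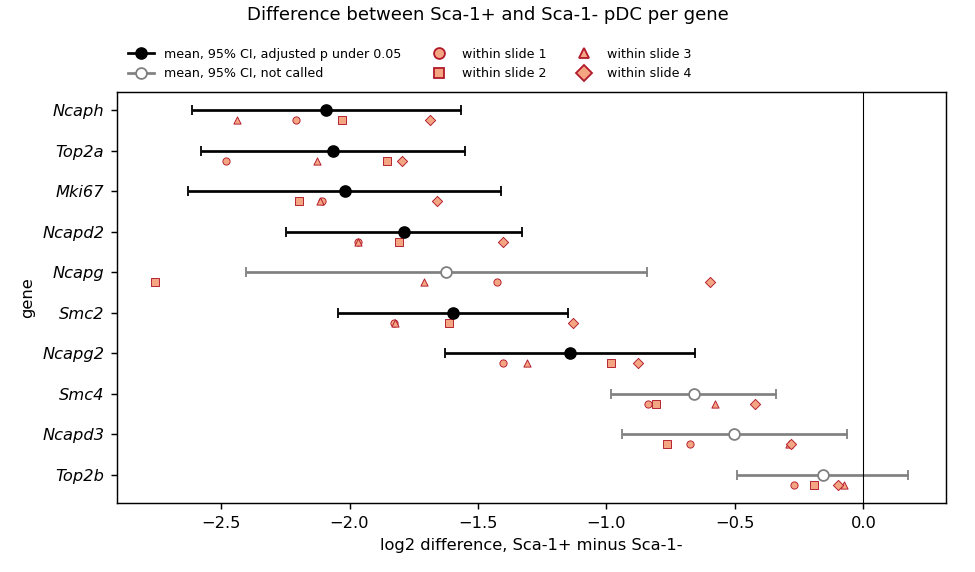
Sca-1+ minus Sca-1- log2 difference of each of the 10 genes, with the fitted value and its 95% interval and the 4 differences by slide as points. Ncaph, Top2a and Mki67 lie near -2, and Top2b spans 0.

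Within the 10, the profiles of Ncaph and Mki67 over the 8 samples were most alike, with a root mean square difference of 0.141 between log2 profiles centred on their means, followed by Smc2 and Ncapd2 at 0.145 and Ncapd2 and Ncaph at 0.174. Ncapd3 was closest to Top2b, at 0.206. The least alike were Ncaph and Top2b and Mki67 and Top2b, each at 1.03. Among 17668 other genes measured on all 8 arrays, those most like Top2a were Cd93, a surface glycoprotein of progenitor and endothelial cells (0.13; difference -1.98), Bub1b, a spindle checkpoint kinase (0.13; -2.09), Anln, an actin-binding protein of the cleavage furrow (0.16; -2.21), and the kinetochore genes Nuf2 (0.18; -2.22) and Kntc1 (0.19; -2.27). The genes most like Mki67 were the centromere motor Cenpe (0.05; -2.04), the mitotic kinase Plk1 (0.06; -1.95), the checkpoint kinase Bub1 (0.08; -2.03), the activator of the anaphase-promoting complex Cdc20 (0.09; -2.001) and the chromosome motor Kif22 (0.10; -2.05). These distances are descriptions over 8 samples, which share the sort and the slides.

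The 8 condensin partner and regulator genes tested had a median difference of -1.92 against 0.03 over all genes, and of -0.92 after normexp background correction. Of the 8, 5 fell and 0 rose (limma, adjusted p of 0.05), against 1.58% of all genes that fell. They were Kif4, a motor that brings condensin to chromosome axes (-2.44, adjusted p = 0.00520), Cdk1 (-2.19, adjusted p = 0.00577) and its cyclin Ccnb1 (-2.27, adjusted p = 0.0125), which phosphorylate condensins, the kinase gene Plk1 (-1.95, adjusted p = 0.0128), and Aurkb, the kinase of the chromosomal passenger complex. Aurkb was well above background in 4 of 4 Sca-1- samples and 0 of 4 Sca-1+ samples, so it entered the test through the Sca-1- group only. At a detection limit set as for Ncapg, Aurkb was 2.70-fold lower, again a nominal figure. Its limma adjusted p of 0.0276 was computed from undetected Sca-1+ values. With only genes detected on all 8 arrays, 4 of the list fell. Ncaph2 had a difference of -0.30 (adjusted p = 0.520), Akap8 of 0.17 and Mcph1 of -0.09. The number that fell was 2 without Sca-1- replicate 1, without Sca-1- replicate 2 or without Sca-1+ replicate 3, and the Aurkb call was lost after normexp background correction.

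The cohesin list held fewer calls. The 19 of 21 cohesin genes tested had a median of -0.28, or -0.48 without Sca-1+ replicate 4. Of the 19, 3 fell and 0 rose, against 1.58% of all genes that fell. They were Sgo1, the protector of centromeric cohesion (-2.03, adjusted p = 0.00595), Cdca5, which encodes sororin (-1.86, adjusted p = 0.0154), and the acetyltransferase gene Esco2 (limma adjusted p = 0.0364). The Esco2 probe was well above background in only 1 of 4 Sca-1+ samples, so its fitted difference of -2.66 is not a measured size; it was -0.81 after normexp background correction (adjusted p = 0.0596), and the call was lost in 10 of 23 other settings. The ring genes Smc1a (-0.35) and Smc3 (-0.43) did not pass. With the slide as a block 7 cohesin genes passed, adding Pttg1, Rad21, Stag3 and Espl1, against 4.12% of all genes that were lower in that fit. Without a block the number was 1 when Sca-1- replicate 1, 2 or 3 was left out. Of 7 SMC5/6 complex genes 0 passed (limma; 0 with an unadjusted p under 0.05, and 0 with the slide as a block), with a median of -0.13, which became -0.0044 or -0.26 when Sca-1- replicate 3 or 4 was left out; the smallest adjusted p were those of Nsmce4a (-0.23, adjusted p = 0.669) and Nsmce2 (-0.23, adjusted p = 0.856). Of 7 of 8 other topoisomerase and repair genes tested 0 passed (limma; 1 with an unadjusted p under 0.05), with a median of 0.07; Tdp1, which removes trapped topoisomerase I, had -0.44 (adjusted p = 0.356) and Topbp1 -0.66 (adjusted p = 0.694; 0.0356 with the slide as a block). The median of that list changed sign when Sca-1- replicate 1, Sca-1+ replicate 4 or replicate 1 of both groups was left out. Without a block, a count of 0 among 7 genes is near the 1.71% called over all genes.

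Of 12 genes for Ki-67 partners and the chromosome periphery, with a median of -0.22, 1 fell and 0 rose, against 1.58% of all genes that fell. It was Cdca2, which encodes Repo-Man, a phosphatase-targeting protein of anaphase chromatin (-2.15, limma adjusted p = 0.00580). With the slide as a block 3 passed, adding Cbx3 and Cbx5, against 4.12% of all genes that were lower in that fit. Of 9 genes for chromatin and the nuclear envelope of mitotic chromosomes, 3 fell and 0 rose, with a median of -0.58: the histone variant genes H2ax (-1.52, adjusted p = 0.0109) and H2az1 (-0.93, adjusted p = 0.0205) and the lamin gene Lmnb1 (-1.74, adjusted p = 0.0111). With the slide as a block 6 passed, adding Banf1, Hmgb2 and Hmgb1; without a block the number was 1 when Sca-1- replicate 1, Sca-1- replicate 2 or Sca-1+ replicate 3 was left out and 6 when Sca-1- replicate 4 was.

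**Figure D5:**
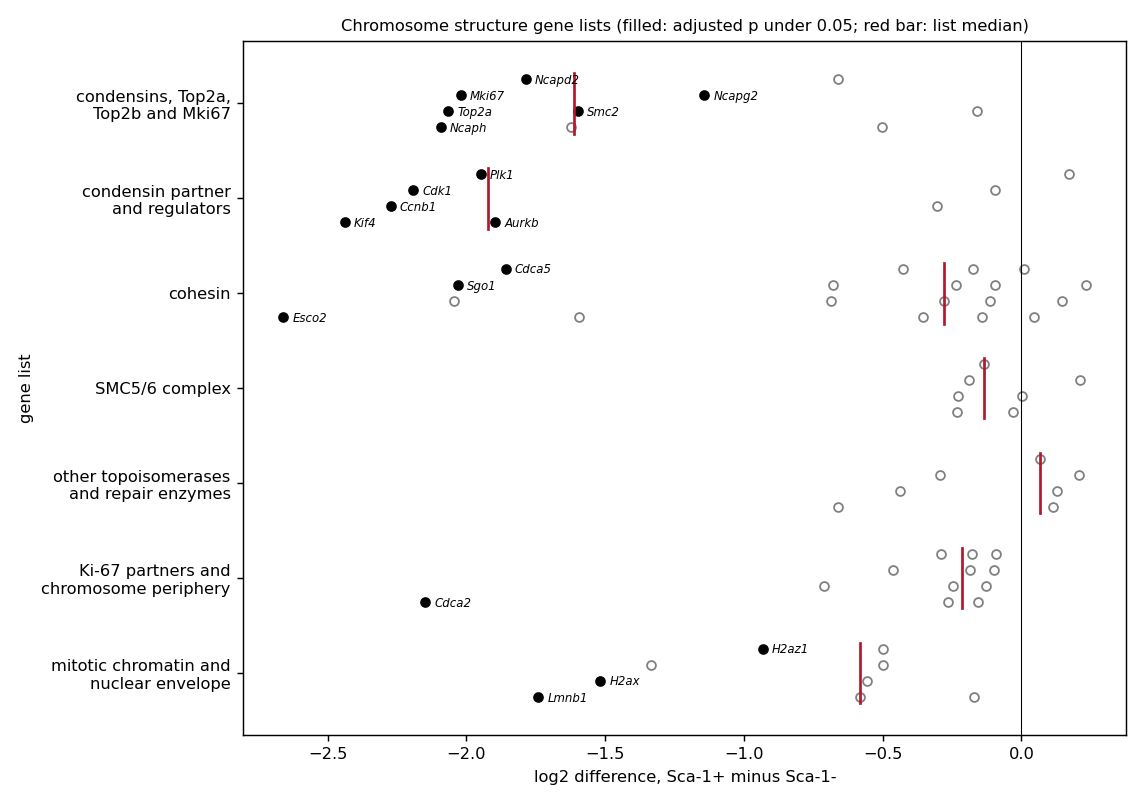
Sca-1+ minus Sca-1- log2 differences of single genes in the 10-gene group and in 6 lists of related genes, with filled points for an adjusted p under 0.05 and a bar at the list median. The condensin regulators have a median of -1.92 (-0.92 after normexp background correction), and the SMC5/6 and other topoisomerase lists, whose medians of -0.13 and 0.07 moved when single samples were left out, have 0 genes called. Over all genes tested, 1.71% were called.

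No marker of another cell type passed the test in either direction, over 4 of 9 B cell, 3 of 10 T and NK cell, 8 of 10 conventional dendritic cell, 5 of 8 macrophage and monocyte, 6 of 8 neutrophil, 5 of 6 basophil and mast cell and 2 of 7 erythroid and megakaryocyte markers tested (limma; 1, 0, 3, 2, 0, 0 and 0 of these had an unadjusted p under 0.05). Over all genes tested 1.71% passed in either direction, so the lack of calls in sets this small says little about the cells present. With the slide as a block 4 conventional dendritic cell markers (2 higher and 2 lower in Sca-1+), 2 macrophage and monocyte markers (1 higher and 1 lower) and 1 neutrophil marker (lower) passed. The share of all genes in that fit was 6.22%. Among the defining markers, Pax5 and Ms4a1 of B cells, Cd3d and Cd3g of T cells and Ncr1 of NK cells were well above background on fewer than 4 arrays and were not tested. The log2 of the summed signal was 7.14 to 7.49 in Sca-1- and 7.05 to 7.48 in Sca-1+ samples for conventional dendritic cell markers, with differences of -0.19, -0.11, -0.047 and -0.016 on slides 1 to 4. It was 1.96 to 3.69 and 1.51 to 3.39 for neutrophil markers. For macrophage and monocyte markers it was 8.84 to 9.37 in Sca-1- and 9.18 to 9.83 in Sca-1+ samples, higher on all 4 slides (by 0.62, 0.45, 0.52 and 0.34). That sum is mostly the signal of Ly6c1, whose mean level was 8.90 in Sca-1- and 9.47 in Sca-1+ samples. Ly6c1 (0.56) and Ccr2 (0.23) were higher in Sca-1+, whereas Csf1r (-1.19), Cd14 (-0.52) and Lyz2 (-0.08) were lower, with a list median of -0.08. For B cell markers the log2 of the summed signal was 3.46 to 3.96 in Sca-1- and 3.92 to 4.13 in Sca-1+ samples. The part of these cells in the differences of the 10 genes was not tested.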

How the data were processed

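Each of 8 arrays, 4 per group, was read from the deposited scanner output of Agilent Feature Extraction 10.7.3.1, per the file headers. The processed signal is an intensity that the authors' software had background-subtracted, per the file headers; 100 ng of RNA was labelled, per the labels' protocols. The authors' deposited table of log2 values, whose scaling no source here states (array medians 3.90, correlation with the scanner values 0.998 to 1.00), served as an alternative. Control spots and outlier spots were left out, spots of a probe were averaged, and log2 signals had the 75th percentile of each array subtracted. The probe with the highest mean stood for a gene, and 19818 genes well above background on at least 4 arrays were tested with limma 3.58.1 (R 4.3.3), without a block, with Benjamini-Hochberg adjustment over all of them. The 10 genes and all lists were chosen with earlier results of these data known. Named besides the 10 and Ly6a were, per list, called genes with the 4 smallest adjusted p, or 2 where none passed, and the 5 genes most like Top2a and Mki67; list members beyond these were named after their values were seen. Replicate number and slide coincide, so same-numbered samples were taken as paired in the block fit. Their deviations from the group means had correlations of 0.44, 0.43, 0.64 and 0.89 for replicates 1 to 4. Pairs of unlike number gave 0.12 to 0.54 among replicates 1 to 3, and -0.72 to -0.39 where 1 sample was a replicate 4. The correlations thus set slide 4 apart and do not by themselves establish the pairing. The limma fit without a block was checked on simulated arrays with known changes and no slide effect, and the permutation code on known answers. The block fit, probe rule and detection limits were not checked in this way. Alternatives were the block, array weights, background correction (normexp with an offset of 50), scaling, filter, probe rule, gene names and omission of samples. The number of arrays limits the precision. Positions of probes relative to exons were not analysed here.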

Additional observations from a re-analysis of the deposited data

Results flagged for a closer look

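Of 20 groups of 4 samples (10 genes in each sorted group), 2 held a sample whose gap to the nearest other sample, as a share of the range of its group, was above Dixon's 95% critical value; chance alone gives about 1 in 20. Ncapd2 in Sca-1+ replicate 3 was 2.11 against 2.61 for the next lowest sample, a gap of 0.877 of the range. Top2b in Sca-1+ replicate 4 was 4.78 against 4.44 for the next highest, a gap of 0.846 of the range.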

How the results depend on the processing

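All of the 24 other settings kept the median difference of the 10 genes below 0: it was -1.20 after normexp correction and -1.83 to -1.42 when samples were left out. With array weights it was -1.91. The number of the 10 called was 9 with array weights and 0 to 8 when samples were left out. The count of all genes called, 339, was 182 with no filter, 1233 with the slide as a replicate block, 1445 with array weights and 1 to 879 when samples were left out. Omitting only Sca-1- replicate 1, 2, 3 or 4 gave 165, 163, 205 or 463, omitting only Sca-1+ replicate 2 or 3 gave 225 or 176, and omitting replicate 3 of both groups gave 29. The split of lower against higher calls, 314 against 25, was 817 against 416 with the block. The Top2a minus Top2b contrast of -1.91 had an exact permutation p of 0.125 within slides, and -1.97 to -1.79 when samples were left out. The condensin contrast was -0.98 with probes averaged, -0.60 after normexp, -1.01 with an exact permutation p of 0.125 within slides, and -1.22 to -0.92 when samples were left out. The other topoisomerase median turned to -0.039 without Sca-1- replicate 1, -0.050 without Sca-1+ replicate 4 and -0.026 without replicate 1 of both groups, and was at most 0.144 (without Sca-1+ replicate 2). The normexp setting added an offset of 50 to every signal, which by arithmetic makes log2 differences of dim probes smaller. The processed signal of Ncapg was 3.69 to 14.97 in Sca-1+ and 19.8 to 28.9 in Sca-1- samples. Fewer samples entered the fits that left some out. Beyond these facts of the settings, the cause of the changes was not tested. Signal over background limits Ncapg, Aurkb and Esco2.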
